A study of Mus musculus with 72 samples.

Results

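The corticotropin-releasing hormone system was followed here as 4 genes, Crh, Crhbp, Crhr1 and Crhr2, found by symbol among the 55401 genes of the count table. All 4 had counts above 0 in all 72 libraries and passed the low-count filter in both regions. Bulk RNA sequencing covered the dorsal (DH) and the ventral (VH) part of the hippocampus in male mice labelled C57BL_6NJ (6NJ) or C57BL_6J (6J). These are closely related inbred substrains, and the labels name no other allele or agent. Under each label, mice went through shock and cue (fear conditioning), the cue alone, or stayed in the home cage, and per the series description tissue for the trained groups was taken 30 min after the task. The 12 groups of region, label and condition held 6 libraries each, and the study asked how baseline and learning-related expression differ between the substrains. No label states if each library of a group is a different animal, and no age is given.

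CRH is a peptide released by hypothalamic neurons that drives pituitary secretion of ACTH, and in the hippocampus it is made mainly by interneurons. It acts through the G protein-coupled receptors CRHR1 and CRHR2, which couple chiefly to Gs and cAMP. CRHR1 binds CRH with high affinity, whereas CRHR2 prefers the urocortins. CRH-binding protein, the product of Crhbp, is a secreted glycoprotein that binds CRH and urocortin and limits their access to the receptors; in the cortex and hippocampus it is known from somatostatin interneurons.

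Some facts of the libraries bear on what follows. Library totals were 30330382 to 56258370 gene counts. C57BL/6J is the substrain known to carry an Nnt deletion and to express little Gabra2, but in these libraries both were lower under 6NJ. Nnt averaged 40.3 ± 2.3 CPM (counts scaled to library size) under 6NJ and 75.5 ± 3.71 CPM under 6J (SD, n = 36 each), and Gabra2 averaged 120 ± 15.7 CPM under 6NJ and 267 ± 35.4 CPM under 6J. The direction of every difference between labels is therefore given for libraries labelled 6NJ and libraries labelled 6J. The labels carry 36 codes, each with 1 library per region. The codes are made of 12 numbers with 3 letters each, and each group holds 2 numbers. No number is shared between labels or conditions, and the lower numbers are all 6J and the higher all 6NJ. Label can thus not be told apart from code order, and what the numbers stand for is not stated. In 6 codes the acute-phase gene Lcn2 was above 2 CPM in both libraries, and all 6 were labelled 6J. They were 32A, 32B, 34A and 34C after the cue and 35A and 35B in the home cage. The DH library of code 40A (6NJ, cue) stood apart in the ventral markers Dcn, Trhr and Nr2f2. Dcn reached 49.7 CPM in it, against 5.78 to 25 CPM in the other 35 DH libraries and 28.3 to 102 CPM in VH. The ventral markers Htr2c (42.4 CPM, against 9.19 to 93 CPM) and Coch (4.12 CPM, against 2.59 to 20.5 CPM) lay within the range of those 35. The dorsal marker Lct was 39.1 CPM in 40A, against 41.9 to 92.3 CPM in those 35. Wfs1 and Spink8, also dorsal, lay within their range. Markers of hippocampal neurons were high in both regions, with Neurod6 at a median of 248 CPM in DH and 177 CPM in VH, and Prox1, a granule cell marker, at 131 CPM in DH and 72.4 CPM in VH. In bulk RNA, fewer cells of a type and less RNA per cell cannot be told apart.

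Per kilobase of annotated exon, the binding protein was the most abundant of the 4 transcripts. Over the 72 libraries Crhbp (chr13:95431371-95444924, minus strand, GRCm38) averaged 10.7 CPM per kb. Crhr1 (chr11:104132855-104175523, plus strand) averaged 4.58 CPM per kb, Crh (chr3:19693401-19695396, minus strand) 0.910 CPM per kb and Crhr2 (chr6:55090049-55133016, minus strand) 0.445 CPM per kb. None of the 4 overlaps another gene in the GENCODE vM21 annotation, so their reads are not shared with an antisense or nested gene. Not scaled for length, Crhbp ranged from 10.8 to 30.2 CPM (381 to 1223 counts), Crhr1 from 6.19 to 15.6 CPM (245 to 736 counts), Crhr2 from 1.07 to 5.34 CPM (37 to 197 counts) and Crh from 0.591 to 1.99 CPM (21 to 85 counts). Single-library values of Crh and Crhr2 carry the larger counting error.

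**Figure D1:**
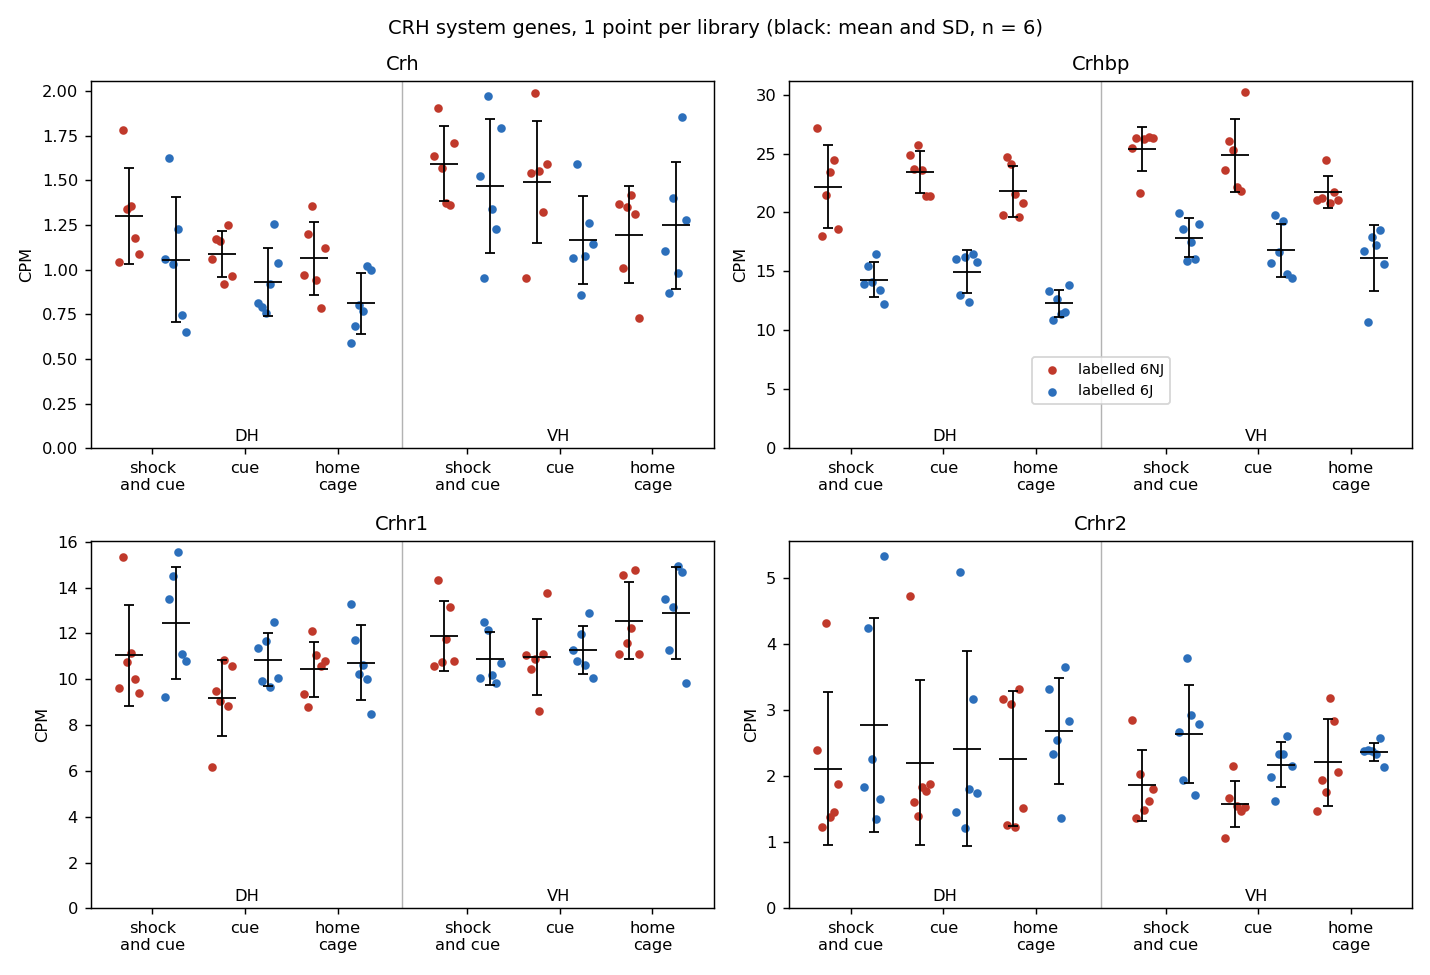
CPM of Crh, Crhbp, Crhr1 and Crhr2 in every library, by region, strain label and condition; black marks are the mean and SD of 6 libraries. In Crhbp the 6NJ libraries lie above all 6J libraries of the same region (18 to 27.2 against 10.9 to 16.5 CPM in DH), and the labels overlap in the other 3 genes.

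Crhbp was higher in libraries labelled 6NJ in both regions, with no overlap between the labels. In DH its level was 18 to 27.2 CPM (median 22.5) in the 18 libraries labelled 6NJ, against 10.9 to 16.5 CPM (median 13.6) in the 18 labelled 6J. In VH it was 20.8 to 30.2 CPM (median 24.0) in libraries labelled 6NJ, against 10.8 to 20 CPM (median 17.0) in those labelled 6J. Of the genes tested, 0.143% in DH and 0.0714% in VH had every 6NJ library above every 6J library. Averaged over the conditions, the log2 fold change of Crhbp was 0.70 ± 0.05 in DH (SE; 95% interval 0.597 to 0.810; edgeR quasi-likelihood test with Benjamini-Hochberg adjustment, adjusted p = 1.43e-12) and 0.50 ± 0.06 in VH (0.392 to 0.613; adjusted p = 2.92e-08). In that comparison 2 of the 4 genes passed in DH, where 14.7% of all genes did, and 2 of 4 in VH, where 9.92% did; the other gene was Crh in DH (higher) and Crhr2 in VH (lower).

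Within each condition the labels did not overlap either, which follows from the separation over all libraries of the region. In DH after shock and cue, Crhbp was 18 to 27.2 CPM (median 22.5) under 6NJ and 12.3 to 16.5 CPM (median 14) under 6J. After the cue it was 21.4 to 25.7 CPM (median 23.6) under 6NJ and 12.4 to 16.5 CPM (median 15.9) under 6J, and in the home cage 19.7 to 24.7 CPM (median 21.2) under 6NJ and 10.9 to 13.8 CPM (median 12.1) under 6J. The difference passed in the home cage as well as after training, at log2 0.83 ± 0.09 in the home cage (adjusted p = 1.74e-07; 0.931% of all genes passed), 0.64 ± 0.09 after the cue (adjusted p = 1.58e-05; 2.72%) and 0.64 ± 0.09 after shock and cue (adjusted p = 1.7e-05; 2.14%). Crhbp was the 1 gene of the 4 that passed in each of these. Every 6NJ library above every 6J library was seen in 0.814% of genes in the home cage, 1.18% after the cue and 1.08% after shock and cue.

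In VH the separation within conditions likewise follows from that over all libraries, and the differences were smaller than in DH. After shock and cue, Crhbp was 21.6 to 26.4 CPM (median 26.3) under 6NJ and 15.9 to 20 CPM (median 18.1) under 6J. After the cue it was 21.8 to 30.2 CPM (median 24.4) under 6NJ and 14.5 to 19.8 CPM (median 16.2) under 6J, and in the home cage 20.8 to 24.4 CPM (median 21.1) under 6NJ and 10.8 to 18.5 CPM (median 17.0) under 6J. The log2 fold changes were 0.43 ± 0.10 in the home cage (adjusted p = 0.0112; 1.35% of all genes passed), 0.57 ± 0.09 after the cue (adjusted p = 0.000381; 1.76%) and 0.51 ± 0.09 after shock and cue (adjusted p = 0.00196; 0.771%), and Crhbp alone of the 4 passed in each. Such separation was seen in 0.653% of genes in the home cage, 0.816% after the cue and 0.745% after shock and cue. The difference between labels was 0.20 ± 0.08 larger in DH than in VH (95% interval 0.046 to 0.354), which did not pass after adjustment (unadjusted p = 0.0118, adjusted p = 0.997; 0.00494% of genes passed, and 0 of the 4 with edgeR or DESeq2, 1 at an unadjusted p under 0.05). Among the single conditions, the DH cue difference lost its call without the 6 Lcn2 codes (log2 0.52, adjusted p = 0.0877, from 2 libraries labelled 6J), and the VH home cage difference lost it when only the groups compared entered the fit (log2 0.43, adjusted p = 0.0985).

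**Figure D2:**
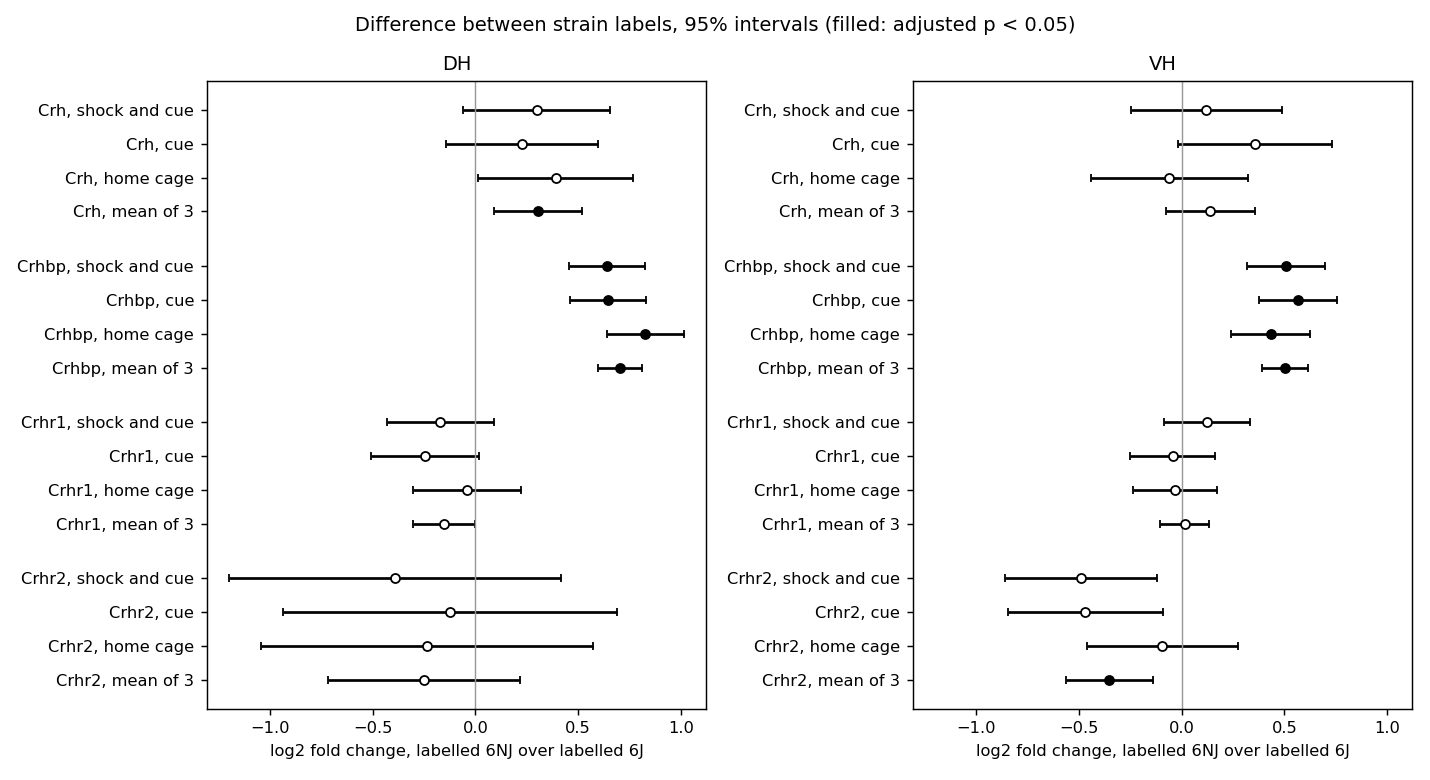
Log2 fold change of libraries labelled 6NJ over libraries labelled 6J, with 95% intervals, for the 4 genes in each condition and as the mean of conditions, DH left and VH right; filled points passed adjusted p 0.05. Crhbp lies between 0.43 and 0.83 throughout, and no other gene passed within a single condition.

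Ordered by group mean, the 6 groups labelled 6NJ came before the 6 labelled 6J. The highest Crhbp means were 25.4 ± 1.88 CPM in VH after shock and cue and 24.8 ± 3.1 CPM in VH after the cue, both under 6NJ, and the lowest was 12.3 ± 1.17 CPM in the DH home cage group labelled 6J (SD, n = 6). Of the 11 pairs of neighbours in that order, 10 overlapped in range, and the 1 pair that did not was the step between labels: 21.7 ± 1.37 CPM in the VH home cage group labelled 6NJ and 17.9 ± 1.65 CPM in the VH shock and cue group labelled 6J. For Crh, Crhr1 and Crhr2 all 11 neighbouring pairs overlapped.

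Crhbp has a pair of annotated protein-coding transcripts that share 1680 bases. Crhbp-202 starts upstream and has 93 bases of its own at its 5′ end (chr13:95444832-95444924) and 6 at its 3′ end, and Crhbp-201 has 21 coding bases of its own (chr13:95444270-95444290), giving coding lengths of 987 bases for Crhbp-201 and 966 for Crhbp-202. The 157 bases directly upstream of both annotated starts are shown because the transcript that differed between labels begins at their end. They come from the RefSeq promoter table (GRCm38.p6, chr13:95444925-95445081, minus strand, 5′ to 3′) and hold none of 5 motifs searched on both strands, which were TATAAA, the cAMP response element TGACGTCA, its shorter core TGACG (part of the full element), the AP-1 motif TGANTCA and the palindromic glucocorticoid response element. The rest of the window of 300 bases lies inside Crhbp-202. It holds 1 TGACG at −64 and 1 TATAAA at +30, counted from the RefSeq start.
Crhbp: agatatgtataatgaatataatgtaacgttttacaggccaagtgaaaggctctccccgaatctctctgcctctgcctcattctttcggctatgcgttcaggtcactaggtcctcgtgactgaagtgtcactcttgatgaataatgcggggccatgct
Among the 32851 promoters of 300 bases in the same table, 13.6% held TATAAA, 1.79% TGACGTCA, 20.8% TGACG, 7.81% TGANTCA and 0.00913% the glucocorticoid response element. These shares are for windows of 300 bases, not for the 157 bases shown.

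The estimated counts placed the difference between labels on Crhbp-202. In DH it was 13 to 22.3 CPM of estimated counts (mean 16.6 ± 2.69, SD, n = 18) under 6NJ and 5.34 to 14.7 CPM (8.38 ± 2.07) under 6J, a log2 fold change of 0.99 ± 0.09 (adjusted p = 2.41e-09; 2.9% of transcripts passed). In VH it was 11.6 to 23.4 CPM (17.8 ± 2.81) under 6NJ and 7.35 to 17.0 CPM (11.1 ± 2.99) under 6J, at log2 0.69 ± 0.10 (adjusted p = 8e-05; 2.18%). Crhbp-201 averaged 4.57 ± 3.05 CPM under 6NJ and 4.51 ± 1.96 CPM under 6J in DH, and 4.69 ± 2.73 CPM under 6NJ and 4.77 ± 2.73 CPM under 6J in VH. Its log2 fold changes of 0.00 ± 0.42 and −0.01 ± 0.32 have intervals too wide to say that it did not differ. With so few private bases, the division of reads between these transcripts is an estimate of the quantifier.

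**Figure D3:**
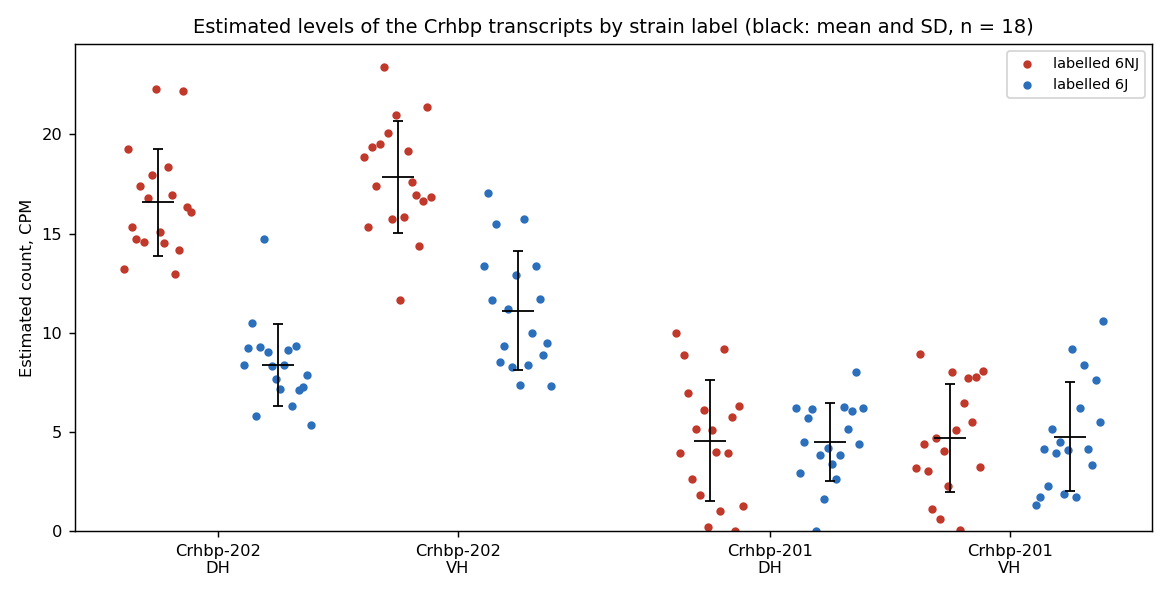
CPM of estimated counts of the Crhbp transcripts in every library, by region and strain label; black marks are the mean and SD of 18 libraries. Crhbp-202 averaged 16.6 CPM under 6NJ and 8.38 CPM under 6J in DH, and Crhbp-201 averaged between 4.51 and 4.77 CPM in all 4 sets.

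Crh, the ligand, differed less between labels than Crhbp did, and in DH only did its difference pass. In DH it was 0.784 to 1.78 CPM (mean 1.15 ± 0.224) in libraries labelled 6NJ and 0.591 to 1.63 CPM (0.933 ± 0.257) in those labelled 6J, which overlapped (SD, n = 18 each). The log2 fold change was 0.30 ± 0.10 (95% interval 0.093 to 0.518; adjusted p = 0.0438). By group, the DH medians under 6NJ were 1.26 CPM after shock and cue, 1.11 CPM after the cue and 1.05 CPM in the home cage. Under 6J they were 1.05, 0.867 and 0.787 CPM in the same order, and the ranges of the labels overlapped in each condition. This call was lost in 21 of the 36 fits that left out 1 library (adjusted p 0.0126 to 0.0796) and without the 6 Lcn2 codes (log2 0.22, adjusted p = 0.334). In VH, Crh averaged 1.43 ± 0.314 CPM under 6NJ and 1.29 ± 0.337 CPM under 6J, at log2 0.14 ± 0.11 (adjusted p = 0.46). Per kilobase, Crhbp transcripts outnumbered Crh by a ratio of 14.8 ± 2.91 under 6NJ and 11.4 ± 2.52 under 6J in DH, and by 12.9 ± 3.01 under 6NJ and 10 ± 2.32 under 6J in VH.

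The other ligands of the receptors were hardly detected, and none of the 3 urocortin genes passed the filter. Ucn had 22 counts in all over the 36 DH libraries and 7 over the VH libraries, and was at 0 in 21 and 30 of them. Ucn2 had 94 counts in DH and 77 in VH. Ucn3 had 4 counts in DH and 22 in VH, and all 22 came from 1 library.

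Crhr1, the receptor with high affinity for CRH, showed no difference between labels that passed. In DH it was 6.19 to 15.3 CPM (mean 10.2 ± 1.82) under 6NJ and 8.47 to 15.6 CPM (11.3 ± 1.89) under 6J, at log2 −0.15 (95% interval −0.303 to 0.000; adjusted p = 0.176). In VH the means were 11.8 ± 1.67 CPM under 6NJ and 11.7 ± 1.63 CPM under 6J, and the interval of the log2 fold change was −0.104 to 0.135 (adjusted p = 0.912). The ranges of the labels overlapped in both regions. By group, the lowest Crhr1 value was 6.19 CPM in DH after the cue under 6NJ (median 9.27, highest 10.8 CPM), and the highest was 15.6 CPM in DH after shock and cue under 6J (median 12.3, lowest 9.25 CPM). Per kilobase, the ratio of Crhr1 to Crhr2 was 11.8 ± 5.48 under 6NJ and 11 ± 5.42 under 6J in DH, and 14 ± 4.09 under 6NJ and 10.5 ± 2.14 under 6J in VH.

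Crhr2, the receptor that prefers urocortins, was lower under 6NJ in VH. There it was 1.07 to 3.19 CPM (mean 1.88 ± 0.568) in libraries labelled 6NJ and 1.62 to 3.79 CPM (2.40 ± 0.492) in those labelled 6J, at log2 −0.35 ± 0.11 (95% interval −0.564 to −0.137; adjusted p = 0.0276). The ranges overlapped, no single condition passed on its own, and the call was lost without the VH library 31C (6J, shock and cue; adjusted p = 0.0509) and without the 6 Lcn2 codes (log2 −0.41, adjusted p = 0.0546). By group in VH, the Crhr2 medians under 6NJ were 1.72 CPM after shock and cue, 1.55 CPM after the cue and 2.0 CPM in the home cage, and under 6J 2.73, 2.24 and 2.38 CPM in the same order. In DH, Crhr2 averaged 2.20 ± 1.08 CPM under 6NJ and 2.63 ± 1.28 CPM under 6J, at log2 −0.25 ± 0.23 (adjusted p = 0.506).

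Among the 9 annotated Crhr2 transcripts, the protein-coding Crhr2-201 had the highest estimated level, at 1.65 ± 0.942 CPM under 6NJ and 1.99 ± 1.01 CPM under 6J in DH, and 1.40 ± 0.53 CPM under 6NJ and 1.81 ± 0.528 CPM under 6J in VH. After the cue in VH, Crhr2-201 was lower than in the home cage (log2 −0.49 ± 0.17, adjusted p = 0.0444; 13.4% of transcripts passed). The next highest was the retained-intron transcript Crhr2-205, at 0.17 ± 0.0947 CPM under 6NJ and 0.13 ± 0.101 CPM under 6J in DH, and 0.131 ± 0.0907 CPM under 6NJ and 0.196 ± 0.105 CPM under 6J in VH. The other 7 averaged 0.0982 CPM or less in each of these sets. The 250 bases before the RefSeq start are shown because Crhr2-205, whose 5′ end is at position 55133016, and Crhr2-201, at 55133014, both begin next to their end, with the single TATAAA in capitals (GRCm38.p6, chr6:55133017-55133266, minus strand, 5′ to 3′). None of the other 4 motifs was found in the window of 300 bases, and none of the 5 in that of Crhr1.
Crhr2: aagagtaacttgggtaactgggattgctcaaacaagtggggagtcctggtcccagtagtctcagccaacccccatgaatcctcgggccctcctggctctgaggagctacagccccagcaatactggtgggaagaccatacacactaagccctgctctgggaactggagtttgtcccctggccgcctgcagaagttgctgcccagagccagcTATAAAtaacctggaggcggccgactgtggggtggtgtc

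Levels of Crhr2 moved with markers of the choroid plexus, the epithelium that makes cerebrospinal fluid and lies against the hippocampus. The summed level of 10 choroid markers ranged from 48.3 to 9090 CPM in DH (median 598) and from 30.8 to 2400 CPM in VH (median 57.2), and with edgeR none of the 10 passed between labels (0 at an unadjusted p under 0.05 in either region; median log2 fold change −0.51 in DH and 0.18 in VH, beside −0.005 and −0.001 over all genes). Ttr, the chief choroid transcript, ranged from 14.5 to 8260 CPM in DH and from 8.95 to 2210 CPM in VH, so no library lacked it. In DH, 4 libraries with choroid sums of 2330 to 9090 CPM and Crhr2 of 4.24 to 5.34 CPM, together with library 38A (4090 and 4.73 CPM), stood highest in Crhr2. Within groups (deviations of log2 values from the group mean, n = 36), Crhr2 and the choroid sum correlated in DH at Pearson r = 0.74 and Spearman rho = 0.75, each with a permutation p of 1e-05, the smallest that 100000 permutations can give (adjusted over 16 relations, 0.00016), and at r = 0.72 without the 2 farthest libraries. In VH r was 0.48 (permutation p = 0.0121, adjusted 0.0486) and rho 0.40 (p = 0.0344, adjusted 0.138), with r = 0.41 without the 2 farthest libraries. With Ttr as a covariate the VH difference of Crhr2 between labels was log2 −0.35 (adjusted p = 0.0142).

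**Figure D4:**
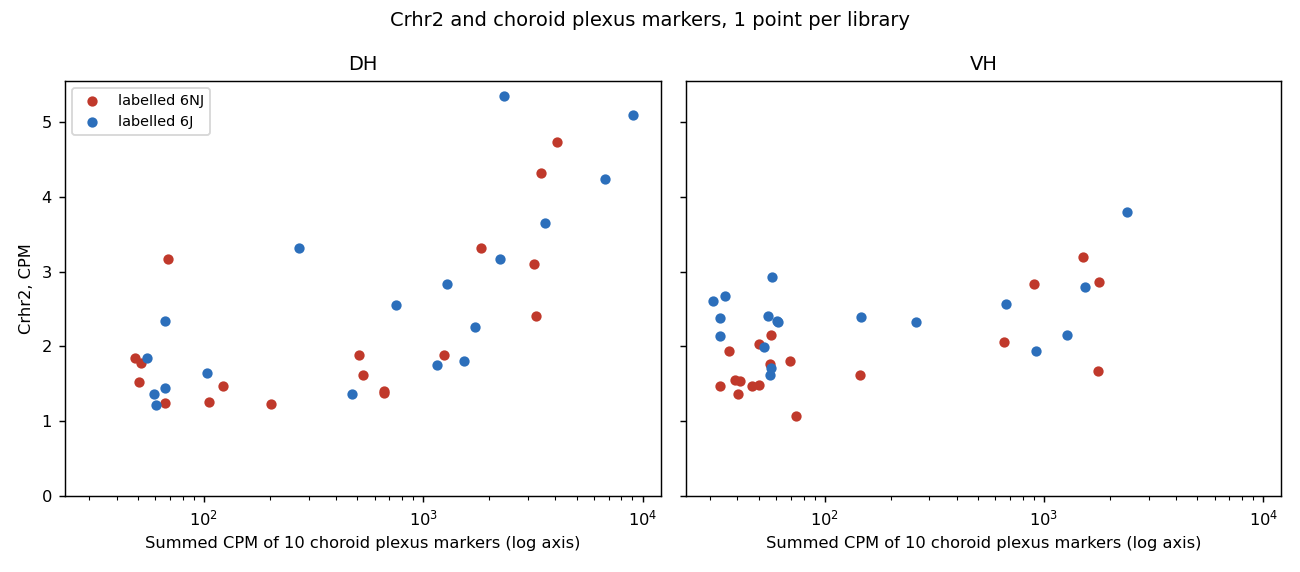
CPM of Crhr2 against the summed CPM of 10 choroid plexus markers (log axis) in every library, DH left and VH right, by strain label. In DH the libraries with Crhr2 above 4 CPM all have choroid sums of 2330 CPM or more. The reverse does not hold: DH library 37A has a sum of 3270 CPM with Crhr2 at 2.4 CPM. DH library 41A has a sum of 68.6 CPM with Crhr2 at 3.17 CPM.

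Both trained conditions were compared with the same home cage libraries, so the responses share their controls. Averaged over labels, changes of the 4 genes were small, at log2 0.34 or less in size. After the cue in DH, Crhbp was 12.4 to 25.7 CPM (mean 19.2 ± 4.73) against 10.9 to 24.7 CPM (17.0 ± 5.24) in the home cage (SD over both labels, n = 12 each), a log2 fold change of 0.20 ± 0.06 (adjusted p = 0.0359). It was the 1 gene of 4 that passed, where 13% of all genes did. That call was lost in 12 of 36 fits without 1 library (adjusted p 0.018 to 0.0635) and without the 6 Lcn2 codes (log2 0.25, adjusted p = 0.0805). After shock and cue in DH, Crhbp stood at log2 0.12 ± 0.06 (adjusted p = 0.233).

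In VH, Crhr1 fell after the cue, to 8.63 to 13.8 CPM (mean 11.1 ± 1.32) against 9.83 to 15.0 CPM (12.7 ± 1.77) in the home cage, with overlapping ranges. Its log2 fold change was −0.19 ± 0.07 (adjusted p = 0.0402), and it was the 1 gene of 4 to pass, where 31.5% of all genes did. The call was lost in 14 of 36 fits without 1 library (adjusted p 0.0114 to 0.0824) and without the 6 Lcn2 codes (log2 −0.14, adjusted p = 0.355). After shock and cue the value was −0.17 ± 0.07 (adjusted p = 0.095). Crhr2 in VH was at −0.30 ± 0.13 after the cue (adjusted p = 0.0764), with 1.88 ± 0.454 CPM after the cue and 2.29 ± 0.465 CPM in the home cage.

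Crh had its highest mean after shock and cue in both regions without passing the test. In DH, Crh averaged 1.18 ± 0.324 CPM after shock and cue, 1.01 ± 0.175 CPM after the cue and 0.937 ± 0.222 CPM in the home cage. In VH the means were 1.53 ± 0.296, 1.33 ± 0.331 and 1.22 ± 0.303 CPM in the same order (SD, n = 12 each). Shock and cue over home cage gave a DH value of log2 0.34 ± 0.13 (adjusted p = 0.0931) and a VH value of 0.31 ± 0.13 (adjusted p = 0.0815). In this comparison edgeR called 0 of the 4 genes in DH, where 10% of genes passed, with 1 at an unadjusted p under 0.05 and 0 by DESeq2 or limma. In VH edgeR called 0 of 4, where 20.7% of genes passed, with 3 at an unadjusted p under 0.05 and 1 by DESeq2 and by limma, which was Crhbp (edgeR log2 0.18 ± 0.07, adjusted p = 0.0506).

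**Figure D5:**
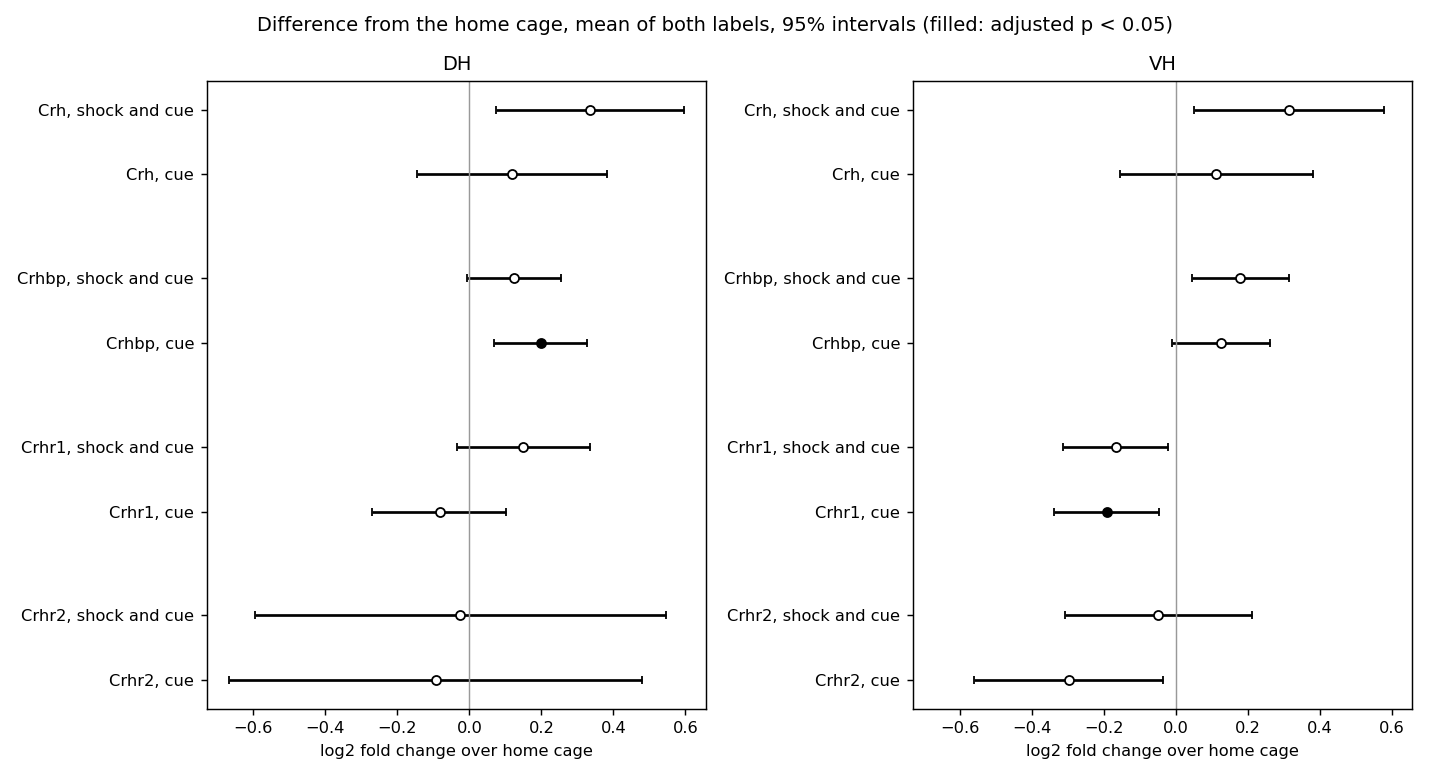
Log2 fold change over the home cage after shock and cue and after the cue, as the mean of both strain labels with 95% intervals, DH left and VH right; filled points passed adjusted p 0.05. Only Crhbp after the cue in DH (0.20) and Crhr1 after the cue in VH (−0.19) are filled, and the intervals of Crhr2 in DH are the widest.

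Shock and cue set directly against the cue gave no call. With edgeR 0 of the 4 genes and 0% of all genes passed in either region, DESeq2 and limma also called 0, and an unadjusted p under 0.05 was reached by Crhr1 in DH only (log2 0.23 ± 0.09, adjusted p = 0.438). Whether a response differed between labels was tested directly for both responses in both regions, and 0 of the 4 genes passed in any of the 4 tests with edgeR or DESeq2, with 0 at an unadjusted p under 0.05 and 0% of all genes called. The widest of these intervals, for Crhr2 in DH after the cue, ran from −1.034 to 1.26, and that of Crhbp in DH after shock and cue from −0.448 to 0.073.

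Between regions, 3 of the 4 genes were lower in DH than in VH, where 30.9% of all genes were lower and 63.6% differed in either direction. Crh was 1.04 ± 0.262 CPM in DH and 1.36 ± 0.328 CPM in VH (SD, n = 36 each), at log2 −0.39 ± 0.08 (adjusted p = 5.92e-06). Crhbp was 18.2 ± 4.89 CPM in DH and 20.5 ± 4.34 CPM in VH, at −0.19 ± 0.04 (adjusted p = 1.42e-05), and Crhr1 was 10.8 ± 1.92 CPM in DH and 11.8 ± 1.63 CPM in VH, at −0.13 ± 0.05 (adjusted p = 0.019). The ranges of the regions overlapped in each. Crhr2 averaged 2.41 ± 1.19 CPM in DH and 2.14 ± 0.585 CPM in VH, at log2 0.18 ± 0.13 (adjusted p = 0.217). All 10 choroid markers were higher in DH (median log2 1.70), and with Ttr as a covariate the Crhr2 value was −0.12 (adjusted p = 0.368). Without DH library 40A the log2 values were −0.39 for Crh, −0.20 for Crhbp and −0.14 for Crhr1, each past the threshold.

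By group, the difference between regions passed for Crh and Crhbp in the home cage under 6J (log2 −0.63, adjusted p = 0.00745, and −0.39, adjusted p = 0.000891; 33.8% of genes passed) and after shock and cue under 6J (−0.47, adjusted p = 0.0468, and −0.32, adjusted p = 0.00793; 26.2%). In the other 4 groups edgeR and DESeq2 called 0 of the 4 genes (0, 1, 2 and 1 at an unadjusted p under 0.05), where 32.1% (6J, cue), 34.1% (6NJ, home cage), 23.6% (6NJ, cue) and 28.4% (6NJ, shock and cue) of genes passed; without DH library 40A, Crhr1 passed after the cue under 6NJ (log2 −0.32, adjusted p = 0.0475). In the home cage under 6NJ the Crhbp value was 0.00 ± 0.09, with a sign that changed without DH library 40A and with a filter of mean CPM of 1. Across the 36 codes, Crhbp of the DH and the VH library of a code correlated at r = 0.74, but at −0.09 once group means were removed.

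Interneuron markers were set beside Crh and Crhbp because those genes are known from interneurons. Their summed level of 15 markers was 971 to 1190 CPM (median 1050) under 6NJ and 917 to 1150 CPM (median 1020) under 6J in DH, and 1070 to 1360 CPM (median 1230) under 6NJ and 1030 to 1330 CPM (median 1200) under 6J in VH. Between labels in DH, Npy (40.1 ± 4.72 CPM under 6NJ and 28.7 ± 2.79 CPM under 6J; log2 0.48 ± 0.05, adjusted p = 4.39e-08) and Sst (145 ± 16.7 CPM under 6NJ and 119 ± 13 CPM under 6J; 0.29 ± 0.05, adjusted p = 0.000311) were higher under 6NJ, Vip was lower (−0.32 ± 0.09, adjusted p = 0.0188), and 12 of 15 did not pass. In VH, Sst was higher (0.20 ± 0.06, adjusted p = 0.0221) and Vip (−0.20 ± 0.05, adjusted p = 0.0154) and Dlx1 were lower. Of all genes 14.7% passed in DH and 9.92% in VH. The median over the 15 was −0.015 in DH and −0.003 in VH, beside −0.005 and −0.001 over all genes. Npy, Sst and Vip encode neuropeptides that mark interneuron classes, and their part in the Crhbp difference was not tested.

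Between regions 10 of the 15 interneuron markers were lower in DH, including Sst (−0.57 ± 0.04) and Vip (−0.69 ± 0.05), and 2 were higher (median log2 −0.36, beside 0.00 over all genes, of which 63.6% passed). Within groups in VH, the interneuron sum correlated with Crhbp at r = 0.61 (permutation p = 0.00053, adjusted 0.00424) and rho = 0.52 (p = 0.00299, adjusted 0.0159), and with Crh at r = 0.57 (p = 0.00086, adjusted 0.00459) and rho = 0.56 (p = 0.00108, adjusted 0.00864). Without the 2 farthest libraries r was 0.53 for Crhbp and 0.52 for Crh. In DH the same relations did not pass (r = 0.24, p = 0.142 for Crhbp, and r = −0.17, p = 0.388 for Crh, both permutation tests). Markers of neighbouring tissue that contains CRH neurons overlapped between labels: the summed level of 6 neocortex markers in DH was 106 to 175 CPM (median 123) under 6NJ and 120 to 183 CPM (median 140) under 6J. That of 7 amygdala, septum and striatum markers was 71.2 to 103 CPM (median 78.2) under 6NJ and 68.5 to 127 CPM (median 82.7) under 6J, and that of 6 thalamus and hypothalamus markers was 48.8 to 84.3 CPM (median 62.7) under 6NJ and 48.0 to 100 CPM (median 73.7) under 6J. Of these, 2 neocortex markers were lower and 1 amygdala, septum and striatum marker, Drd1, was higher under 6NJ in DH, and their part in the differences was not tested.

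Genes of receptor coupling, receptor desensitisation and cAMP signalling differed little between labels. Of 29 such genes, 3 were higher and 3 lower under 6NJ in DH, and 1 higher and 2 lower in VH, with medians of 0.005 and 0.02, beside −0.005 and −0.001 over all genes. Of all genes 14.7% passed in DH and 9.92% in VH. Arrb1, an arrestin that takes part in desensitising the receptors, was higher in both regions (DH log2 0.09 ± 0.02, adjusted p = 0.00776; VH 0.11 ± 0.02, adjusted p = 0.000214), and Grk3, a receptor kinase, was lower in both (−0.17 ± 0.04, adjusted p = 0.0081, and −0.15 ± 0.03, adjusted p = 0.00219). Of the 4 genes on the list for CREB-family factors and their coactivators, 2 rose after training and 2 did not pass. Crem rose after shock and cue (0.27 ± 0.04 in DH and 0.26 ± 0.04 in VH) and after the cue (0.20 ± 0.04 in DH and 0.29 ± 0.04 in VH). Creb1 rose after shock and cue (0.11 ± 0.03 in DH and 0.17 ± 0.03 in VH) and after the cue (0.12 ± 0.03 in DH and 0.225 ± 0.03 in VH). The coactivator genes Crtc1 and Crtc2 stood between −0.09 and 0.01 in these 4 comparisons. Grk6 fell in all 4 comparisons, at −0.08 after shock and cue in both regions. In all, 4 of the 29 rose and 2 fell after shock and cue in DH, 2 and 1 after the cue in DH, 5 and 1 after shock and cue in VH, and 7 and 3 after the cue in VH, with medians of −0.02, −0.03, 0.00 and 0.00 beside all-gene medians of 0.00, 0.00, −0.01 and −0.01. The shares of all genes that passed in these comparisons were 10% and 13% in DH and 20.7% and 31.5% in VH, in the same order.

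Of 15 stress axis genes, 12 were tested. Oxtr, the oxytocin receptor, was lower under 6NJ in both regions. In DH it was 5.45 ± 1.51 CPM under 6NJ and 7.0 ± 1.77 CPM under 6J (log2 −0.36 ± 0.12, adjusted p = 0.0397). In VH it was 13.6 ± 1.86 CPM under 6NJ and 17.3 ± 2.54 CPM under 6J (−0.35 ± 0.05, adjusted p = 2.23e-05). No other gene of the list passed between labels, with list medians of −0.01 and 0.00. Among the glucocorticoid-induced genes of the list, Sgk1 and Tsc22d3 rose after both tasks in both regions, while Fkbp5 fell after shock and cue in DH. Sgk1 was 89.1 ± 11.1 CPM after shock and cue, 96.8 ± 17.6 CPM after the cue and 57.7 ± 6.87 CPM in the home cage in DH, with log2 fold changes of 0.63 ± 0.07 and 0.74 ± 0.07. Pomc, the precursor of ACTH, rose after shock and cue in both regions. In DH it was 1.16 to 28.7 CPM against 0.715 to 1.47 CPM in the home cage (log2 2.12 ± 0.56, edgeR adjusted p = 0.0142). In VH it was 0.844 to 21.6 CPM against 0.764 to 1.81 CPM (1.46 ± 0.46, edgeR adjusted p = 0.0246). Spread among trained libraries was wide. The Pomc medians over all 36 libraries, 1.32 CPM in DH and 1.4 CPM in VH, lay within the home cage ranges. Tsc22d3 stood at 0.40 ± 0.07 after shock and cue and 0.45 ± 0.07 after the cue in DH. Nr3c1, the glucocorticoid receptor, rose in VH (0.12 ± 0.04 after shock and cue, adjusted p = 0.0499, and 0.17 ± 0.04 after the cue, adjusted p = 0.00434). In DH, 3 of 12 rose and 1 fell after shock and cue (Fkbp5, −0.23 ± 0.06) and 2 rose after the cue. In VH, 5 rose after shock and cue and 3 after the cue. Of all genes 10% passed after shock and cue and 13% after the cue in DH, and 20.7% and 31.5% in VH. List medians ran from 0.06 to 0.16 in these 4 comparisons.

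Among 10 genes of peptide processing and dense core vesicles, Pcsk1, a prohormone convertase, rose after both tasks. It was 25 ± 6.34 CPM after shock and cue, 22.5 ± 4.51 CPM after the cue and 17.0 ± 2.85 CPM in the home cage in DH (log2 0.56 ± 0.11, adjusted p = 0.00149, and 0.41 ± 0.12, adjusted p = 0.0154), and stood at 0.46 ± 0.08 and 0.40 ± 0.08 in VH. Its inhibitor Pcsk1n fell after the cue in DH (−0.25 ± 0.08, adjusted p = 0.0267) and after both tasks in VH (−0.29 ± 0.08 each). Between labels, Scg2, a granin, was higher under 6NJ (0.19 ± 0.03 in DH and 0.12 ± 0.04 in VH), and Mme, a peptidase that degrades neuropeptides (−0.34 ± 0.08 and −0.29 ± 0.06), and Scg5 were lower, so 1 of 10 was higher and 2 lower in each region, where 14.7% of all genes passed in DH and 9.92% in VH, with medians of 0.01 and 0.02.

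The genes whose levels ran most like each member over the 36 libraries of each region were ranked by the smaller of the Pearson correlations in DH and VH. For Crhbp these were Cort, the peptide cortistatin of interneurons (r = 0.89 in DH and 0.84 in VH), Atf4 (0.88 and 0.82), the unnamed gene ENSMUSG00000118458 (0.86 and 0.81), Gdi2 (0.80 and 0.80) and mt-Nd3 (0.82 and 0.80), but Crhbp separates by label, and the correlations were lower with group means removed. They were then 0.52 and 0.57 for Cort, 0.30 and 0.29 for Atf4, −0.13 and 0.26 for ENSMUSG00000118458, 0.02 and 0.35 for Gdi2, and −0.17 and 0.13 for mt-Nd3. Cort was also first for Crh (0.59 and 0.57; within groups 0.51 and 0.71), followed by Gpr19 (0.57 and 0.56), Tac1 (0.56 and 0.55), Cbx8 and Zfp954. Crhr1 was most like Grm4, a metabotropic glutamate receptor (0.79 and 0.84; within groups 0.74 and 0.83), followed by Coro6 (0.77 and 0.77), Tmem44, Olfm2 and Klhdc8a. Crhr2 was most like Ltbp3 (0.72 and 0.75; within groups 0.78 and 0.69), followed by Cd59a, Acaa2, Ccdc114 and Ctnnal1. Among the 4 themselves the correlations within groups were weak, between −0.25 and 0.35, with Crh and Crhbp at 0.25 in DH and 0.34 in VH. These are descriptions of libraries that share depth and dissection, and carry no test.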

How the data were processed

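Per the labels' protocols, Trizol-extracted and column-purified RNA went into TruSeq stranded mRNA libraries read as single ends. The deposited gene table holds raw counts and the deposited transcript table estimated counts; the submitters' processing notes name HISAT2, featureCounts, kallisto, DESeq2 and FastQC and the build GRCm38, with no versions given in the sources used here. The members and gene lists were chosen with earlier results of these data known.

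Counts were scaled by total and TMM factor to CPM. Genes kept by filterByExpr (19647 in DH, 19597 in VH, 20255 in the joint fit of 72 libraries) were tested with edgeR 4.0.16 (quasi-likelihood F-test, robust, all groups of a region in 1 fit, in R 4.3.3), with Benjamini-Hochberg adjustment over all genes and a threshold of 0.05. Estimated counts were rounded and tested in the same way. The fit of the difference between labels in DH was tried on simulated independent counts with known changes. These counts held no shared codes or dissection differences, so they cannot speak to those. The 4 members are named in every comparison, list genes where they passed or define the list, and the 5 genes most like each member.

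Alternatives were DESeq2 1.42.0 and limma 3.58.1, RLE scaling, no filter and a filter of mean CPM of 1, only the groups compared, a Ttr covariate, a replicate block, leaving out the 6 Lcn2 codes and leaving out single libraries; those without DH library 40A were chosen after seeing the data. P-values measure the spread between libraries, which may be technical. No pair of libraries within a group agreed within sampling noise (180 pairs, chi-square per degree of freedom at least 4.51).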

Additional observations from a re-analysis of the deposited data

Results flagged for a closer look

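Of 48 groups of 6 libraries, 5 held 1 library far from the others, where the test used flags about 1 group in 20 by chance. In the VH home cage group labelled 6J, Crhbp was lowest in library 35B, at 10.8 CPM with the nearest library at 15.6 CPM (gap over range 0.63). In the VH home cage group labelled 6NJ, Crhbp was highest in library 41C, at 24.4 CPM beside 21.8 CPM (0.743). In the VH shock and cue group labelled 6NJ, Crhbp was lowest in library 37C, at 21.6 CPM beside 25.5 CPM (0.808). In the DH shock and cue group labelled 6NJ, Crhr1 was highest in library 37B, at 15.3 CPM beside 11.1 CPM (0.706). In the DH cue group labelled 6NJ, Crhr2 was highest in library 38A, at 4.73 CPM beside 1.88 CPM (0.856), and that library had a choroid marker sum of 4090 CPM.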

How the results depend on the processing

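The difference of Crhbp between labels, averaged over conditions, kept its call under every alternative run, at log2 0.66 to 0.71 in DH and 0.50 to 0.51 in VH. With no filter the adjusted p was 0.0699 for Crh between labels in DH (log2 0.31), 0.0567 for Crhbp after the cue in DH (0.20) and 0.0718 for Crhr1 after the cue in VH (−0.19), which was also lost with the Ttr covariate (−0.18, adjusted p = 0.0639). Without the 6 Lcn2 codes the values were 0.22, 0.25 and −0.14 for these 3 and −0.41 for Crhr2 between labels in VH, none past the threshold. Crhbp after shock and cue in VH passed with DESeq2 (0.18), RLE scaling (0.18), limma (0.19), the mean CPM filter (0.18) and only the groups compared (0.18), and Crhr2 after the cue in VH passed with only the groups compared (−0.30). None of the causes was tested.

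Values without a call changed sign in these cases. Without the 6 Lcn2 codes these were Crh in DH after shock and cue between labels' responses (0.052), Crh after the cue in VH (−0.014), Crhbp between regions after the cue under 6J (0.063), Crhr1 between labels in the DH home cage (0.085) and in VH (−0.04), Crhr1 after the cue in DH (0.051) and after shock and cue over the cue in VH (−0.045), and Crhr2 between regions after the cue under 6J (−0.18) and between labels after the cue in DH (0.019). With the Ttr covariate, Crhr2 between regions was −0.38, −0.091 and −0.16 under 6J (cue, home cage, shock and cue), −0.22 under 6NJ after shock and cue and −0.12 over all groups; between labels after the cue in DH it was 0.079, and shock and cue over cue in DH gave 0. Crhbp between regions in the home cage under 6NJ was −0.002 with the mean CPM filter and −0.004 without DH library 40A. Crhbp-201 in DH was −0.007 between labels with that filter, and −0.003 (filter) and −0.001 (DESeq2) for shock and cue over cue.

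Libraries of the regions were not treated as paired by code, since not every code had a correlation above 0.1 (deviations of same-code libraries correlated at −0.194 to 0.367, median 0.111, with 21 of 36 above 0.1). Of the 36, 17 correlated best with their own code among the 6 of their group, more than random matching would give, which points to partial pairing. The main tests between regions take the libraries as independent. With the code as a replicate block, DH minus VH was −0.39 for Crh, −0.19 for Crhbp, −0.13 for Crhr1 and 0.10 for Crhr2, and Crhr2 turned to −0.032 after shock and cue under 6J and −0.017 in the home cage under 6NJ; no call changed for the mean over groups.

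Leaving out 1 library at a time gave these ranges of log2 values. Between labels, Crh ran from 0.27 to 0.36 in DH and from −0.15 to 0.089 in the VH home cage. Crhr1 ran from −0.10 to 0.028 in the DH home cage, −0.10 to 0.011 in the VH home cage, −0.12 to 0.016 after the cue in VH and −0.01 to 0.035 over conditions in VH. Crhr2 ran from −0.50 to 0.235 after the cue in DH and from −0.41 to −0.31 in VH. Over the home cage, after shock and cue Crh ran from 0.25 to 0.39 in DH and 0.26 to 0.39 in VH, Crhbp from 0.13 to 0.21 in VH, Crhr1 from −0.20 to −0.14 in VH, and Crhr2 from −0.19 to 0.045 in DH and −0.13 to 0.021 in VH. After the cue, Crhbp ran from 0.18 to 0.22 in DH, and Crhr1 from −0.23 to −0.16 and Crhr2 from −0.35 to −0.23 in VH. Shock and cue over cue ran from −0.006 to 0.062 for Crhr1 in VH and from −0.10 to 0.26 for Crhr2 in DH. The number of genes called between labels in DH was 2888, and 1586 without the 6 Lcn2 codes; after the cue alone it was 535, and 37 without those codes. Crh and Crhr2 rest on as few as 21 and 37 counts in a library, which limits their precision.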

Other observations

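Neighbouring genes within 500 kb, looked at after the values of the members were seen, were tested between labels. Of 9 tested neighbours of Crhbp, edgeR called 0 in DH and 0 in VH, with 1 in each region at an unadjusted p under 0.05. Of 7 neighbours of Crh, 1 passed in DH (Cp) and 1 in VH (Hltf), both lower under 6NJ. Of 16 neighbours of Crhr1, 2 passed in DH (Kansl1 and Nsf) and 1 in VH (Kansl1), and of 13 neighbours of Crhr2, 3 passed in DH (Fkbp14, Gars and Znrf2) and 4 in VH (Mturn in addition). Of all genes 14.7% passed between labels in DH and 9.92% in VH.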
